A study of Mus musculus with 6 samples.

Results

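The genes described here are 10 transcripts that cytotoxic lymphocytes use, measured in RNA from mouse samples labelled CD4 T cells. They are the CD8 chains Cd8a and Cd8b1, the granule genes Prf1, Gzma, Gzmb and Nkg7, the NK receptor genes Klrd1 and Ncr1, the transcription factor gene Eomes and the chemokine gene Ccl5. They were picked by symbol from the 54532 gene rows of the deposited table, and all 10 were found by Ensembl identifier. Of these, 9 averaged 1 or more across the libraries and were tested among 14944 genes, and Cd8a, with a mean of 0.933, fell under that filter.

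The study compared 3 samples labelled iCD4-PRMT5 delta/delta, called KO here (KO 1, KO 4 and KO 5), with 3 labelled iCD4-PRMT5fl/fl, called WT here (WT 1, WT 2 and WT 4). PRMT5 is an enzyme that methylates arginines of proteins, and the comparison asks which transcripts differ in amount when its gene is labelled as deleted. All 6 samples were CD4 T cells, taken from the spleens and lymph nodes of C57BL/6 mice, so the background strain and the tissue were shared by both genotypes. The treatment label of all 6 gives CD3 and CD28 antibodies for 48 h, while each title ends in the word rest, so the activation state is not settled by the labels, which are alike in both groups. The labels do not spell out what drives the deletion, whether WT animals carried a recombinase, the animals' age or whether animals were pooled. A code in the sample descriptions puts KO 1, WT 1 and WT 2 in library series 22 and KO 4, KO 5 and WT 4 in library series 24. What this code stands for is not given.

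Cytotoxic T cells and NK cells kill by releasing granules in which perforin opens the way for granzymes, proteases that start cell death. Conventional CD8 T cells carry CD8, a dimer of an alpha and a beta chain that binds MHC class I, and helper T cells silence these chains and carry CD4, which binds MHC class II. NK cells lack a T cell receptor and read their targets through receptors such as NKp46, the product of Ncr1, and CD94, the product of Klrd1. Some CD4 T cells, NKT cells and gamma-delta T cells also make granule proteins, so these transcripts do not belong to a single cell type. In bulk RNA, fewer cells of a type and less RNA per cell cannot be told apart.

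Values are robust FPM, the authors' fragments per gene scaled by the authors' robust size factors, and levels of different genes are compared only per kb of exon. The gene rows of a library summed to between 857333.5 and 954013.7, and the depth in reads is unknown. Prmt5 measured 24.4, 23.8 and 21.5 in KO 1, KO 4 and KO 5, against 34.9, 41.0 and 43.9 in WT 1, WT 2 and WT 4. Each KO library was therefore below each WT library, and RNA remained in all KO libraries. The value covers the whole gene, so transcripts that lack a deleted part would still be counted. WT 1 stood apart in signal from genes that lymphocytes are not known to use. Its 1965 olfactory and vomeronasal receptor genes together gave 0.295 FPM per kb of exon, against 0.0333, 0.079 and 0.0246 in KO 1, KO 4 and KO 5 and 0.0813 and 0.0141 in WT 2 and WT 4. This background was summed from values rounded to 1 decimal, so receptor genes too low for that decimal entered it as 0. Ratios to it are therefore approximate.

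The genes of the CD8 chains differed in level. Cd8a, encoding the alpha chain (ENSMUSG00000053977.13, GRCm38 chromosome 6, 71373427 to 71379173, plus strand), measured 1.1, 0.7 and 0.5 in KO 1, KO 4 and KO 5, against 2.1, 1.0 and 0.2 in WT 1, WT 2 and WT 4. The highest and the lowest value were both in WT libraries, 10.5-fold apart, and the KO values lay between them. Per kb of exon, Cd8a stood at 0.302, 0.192 and 0.137 in KO 1, KO 4 and KO 5, against 0.577, 0.275 and 0.055 in WT 1, WT 2 and WT 4. This was 9.08, 2.44 and 5.59 times the receptor background of the same KO libraries and 1.96, 3.38 and 3.9 times that of the same WT libraries. Cd8a and the receptor background were both highest in WT 1 and lowest in WT 4, and the part of this background in the Cd8a value was not tested.

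Cd8b1, the beta chain gene (ENSMUSG00000053044.8, chromosome 6, 71322788 to 71337494, plus strand), lies upstream of Cd8a on the same strand. It measured 8.7, 7.1 and 7.8 in KO 1, KO 4 and KO 5, against 8.7, 8.3 and 8.1 in WT 1, WT 2 and WT 4. It varied least of the 10 genes, 1.23-fold from the lowest to the highest library. Per kb of exon it reached 5.87, 4.79 and 5.26 in the KO libraries and 5.87, 5.6 and 5.46 in the WT libraries. It was thus higher than Cd8a per kb in each library, by 19.4, 24.9 and 38.3 times in KO 1, KO 4 and KO 5 and by 10.2, 20.4 and 99.3 times in WT 1, WT 2 and WT 4. No gene of the GENCODE vM21 annotation overlaps either CD8 gene.

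The samples' own label was set against the same scale. Cd4, the coreceptor gene of helper T cells, gave 115, 101 and 97.1 FPM per kb in KO 1, KO 4 and KO 5, against 96.4, 97.7 and 114 in WT 1, WT 2 and WT 4. Per kb, Cd4 was 381, 523 and 707 times Cd8a in the KO libraries and 167, 355 and 2070 times Cd8a in the WT libraries. It was 16.4 to 21 times Cd8b1 over the 6 libraries. Zbtb7b, the helper lineage factor gene, measured 141.8 to 150.2 in KO libraries and 107.6 to 168.5 in WT libraries. The genes that define the labelled cell type were thus high in each library, and Cd8a was at or under 9.08 times the receptor background in each. Cd8b1 was further above it, by 176, 60.6 and 214 times in KO 1, KO 4 and KO 5 and by 19.9, 68.8 and 387 times in WT 1, WT 2 and WT 4. The size of these ratios depends on how the low receptor values were rounded. The CD8 chains thus do not give the same picture of CD8 T cells in these samples. The 10 genes are therefore described as genes and not as markers of a population.

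**Figure D1:**
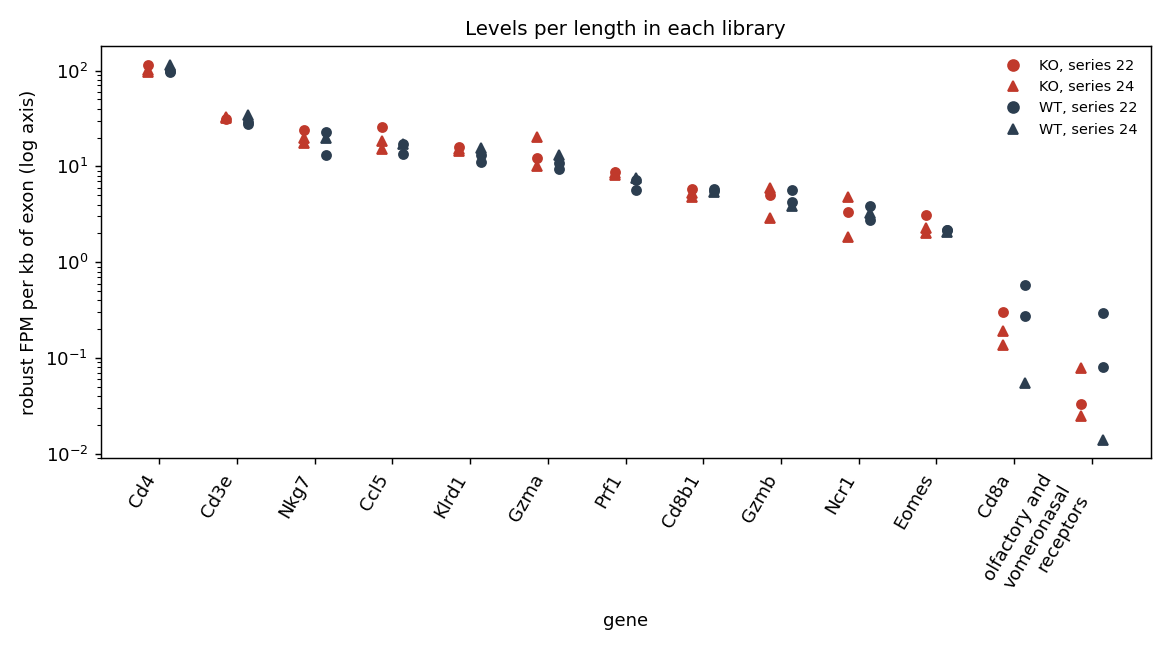
Level per kb of exon (robust FPM, log axis) of Cd4, Cd3e, the 10 genes in falling order and the summed olfactory and vomeronasal receptor genes; each point is 1 library, KO in red left of WT in dark blue, circles for series 22 and triangles for series 24. Cd8a, at 0.055 to 0.577, is closer to the receptor genes than to the other members, which lie between 1.82 and 25.8.

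Per kb, the cytotoxic genes fell into an order with few gaps. Nkg7 (mean of the 6 libraries 19.5), Ccl5 (17.8), Klrd1 (14.2) and Gzma (12.7) formed the upper end, and their ranges over the libraries overlapped. Prf1 followed at 5.61 to 8.67, below the lowest Gzma value of 9.44. Each neighbouring pair among Prf1, Cd8b1 (4.79 to 5.87), Gzmb (2.92 to 5.99), Ncr1 (1.82 to 4.81) and Eomes (2 to 3.08) overlapped. The single other gap was that between Eomes and Cd8a.

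The promoters of the granule genes and of Ncr1 are shown beside that of Cd8a, the member of lowest level, because T-box factors such as EOMES and RUNX factors such as RUNX3 are known regulators of cytotoxic genes. RefSeq promoter windows (GRCm38.p6) were found for 7 of the 10 genes, and Cd8b1, Klrd1 and Ccl5 had none in the table used. The 250 bases before the start were searched on both strands for the RUNX core TGTGGT, with reverse complement ACCACA, and for the T-box core GGTGTG, with reverse complement CACACC. The ends of these motifs can share bases, and capitals mark each match. Sequences run 5′ to 3′ in the direction of the gene.
Prf1, chr10:61297586-61297835, plus strand: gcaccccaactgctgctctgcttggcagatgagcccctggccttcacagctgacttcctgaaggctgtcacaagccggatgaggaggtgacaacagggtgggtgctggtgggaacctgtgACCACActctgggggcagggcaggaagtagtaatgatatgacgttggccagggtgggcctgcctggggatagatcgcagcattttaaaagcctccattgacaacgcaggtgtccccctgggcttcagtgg
Gzma, chr13:113100982-113101231, minus strand: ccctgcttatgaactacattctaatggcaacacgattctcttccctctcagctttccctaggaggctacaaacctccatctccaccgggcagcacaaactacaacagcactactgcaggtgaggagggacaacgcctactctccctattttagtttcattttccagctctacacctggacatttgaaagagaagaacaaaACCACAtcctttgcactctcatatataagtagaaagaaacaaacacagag
Gzmb, chr14:56262335-56262584, minus strand: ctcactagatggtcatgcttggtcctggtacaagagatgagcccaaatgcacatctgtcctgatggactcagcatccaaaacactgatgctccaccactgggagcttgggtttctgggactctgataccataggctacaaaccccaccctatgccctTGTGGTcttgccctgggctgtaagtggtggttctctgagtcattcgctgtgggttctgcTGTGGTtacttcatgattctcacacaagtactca
Nkg7, chr7:43436888-43437137, plus strand: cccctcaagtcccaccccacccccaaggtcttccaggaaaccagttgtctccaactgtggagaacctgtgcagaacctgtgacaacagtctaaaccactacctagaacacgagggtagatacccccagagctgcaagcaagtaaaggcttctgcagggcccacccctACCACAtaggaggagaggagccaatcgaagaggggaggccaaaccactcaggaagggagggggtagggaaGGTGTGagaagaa
Ncr1, chr7:4337465-4337714, plus strand: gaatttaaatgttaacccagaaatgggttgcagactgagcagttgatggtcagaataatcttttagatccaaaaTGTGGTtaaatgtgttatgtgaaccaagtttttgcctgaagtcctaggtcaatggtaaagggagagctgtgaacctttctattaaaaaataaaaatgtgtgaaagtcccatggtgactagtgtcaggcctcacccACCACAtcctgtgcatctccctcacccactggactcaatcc
Cd8a, chr6:71373177-71373426, plus strand: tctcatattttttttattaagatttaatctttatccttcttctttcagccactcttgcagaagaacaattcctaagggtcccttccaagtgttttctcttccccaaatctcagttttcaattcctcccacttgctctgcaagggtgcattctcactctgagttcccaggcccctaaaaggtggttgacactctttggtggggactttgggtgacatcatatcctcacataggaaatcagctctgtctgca
The RUNX core was present in 5 of the 7 genes, namely Prf1, Gzma, Gzmb, Nkg7 and Ncr1. By window this was 6 of 8, against 14% of all 32851 windows, since Ncr1 has overlapping windows, of which the first is shown. Gzmb held it 93 and 34 bases before the start, and the Ncr1 window shown held it at 176 and 41 bases. The other 3 held it once, Prf1 at 130, Gzma at 50 and Nkg7 at 83 bases. The T-box core was present in Nkg7 alone, 13 bases before the RefSeq start, thus in 1 of the 8 windows, against 16.3% of all windows. The GENCODE model of Nkg7 starts further upstream, at 43437073, so this match lies inside the gene by that model. The windows of Cd8a and Eomes held neither. A match describes letters, and binding of a factor was not measured.

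Between genotypes, none of the 9 genes tested passed the test. limma called 0 members higher and 0 lower in KO, and it called 0% of the 14944 genes in either direction (adjusted p below 0.05). Prmt5 itself was among the genes not called, although each KO library was below each WT library. Its log2 change was -0.78 (SE 0.137), with an unadjusted limma p of 0.00049. The test thus missed the gene labelled as deleted, so the lack of calls does not show that the members were unchanged. Without adjustment, 37 genes (0.248% of those tested) and 0 of the 9 members had p below 0.05. The members' log2 changes (KO over WT, fitted beside library series) had a median of 0.19, and 7 of 9 were positive. Over all genes tested the median was 0.01, and 54.2% were positive. The adjusted p was 1 for each of the 9.

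**Figure D2:**
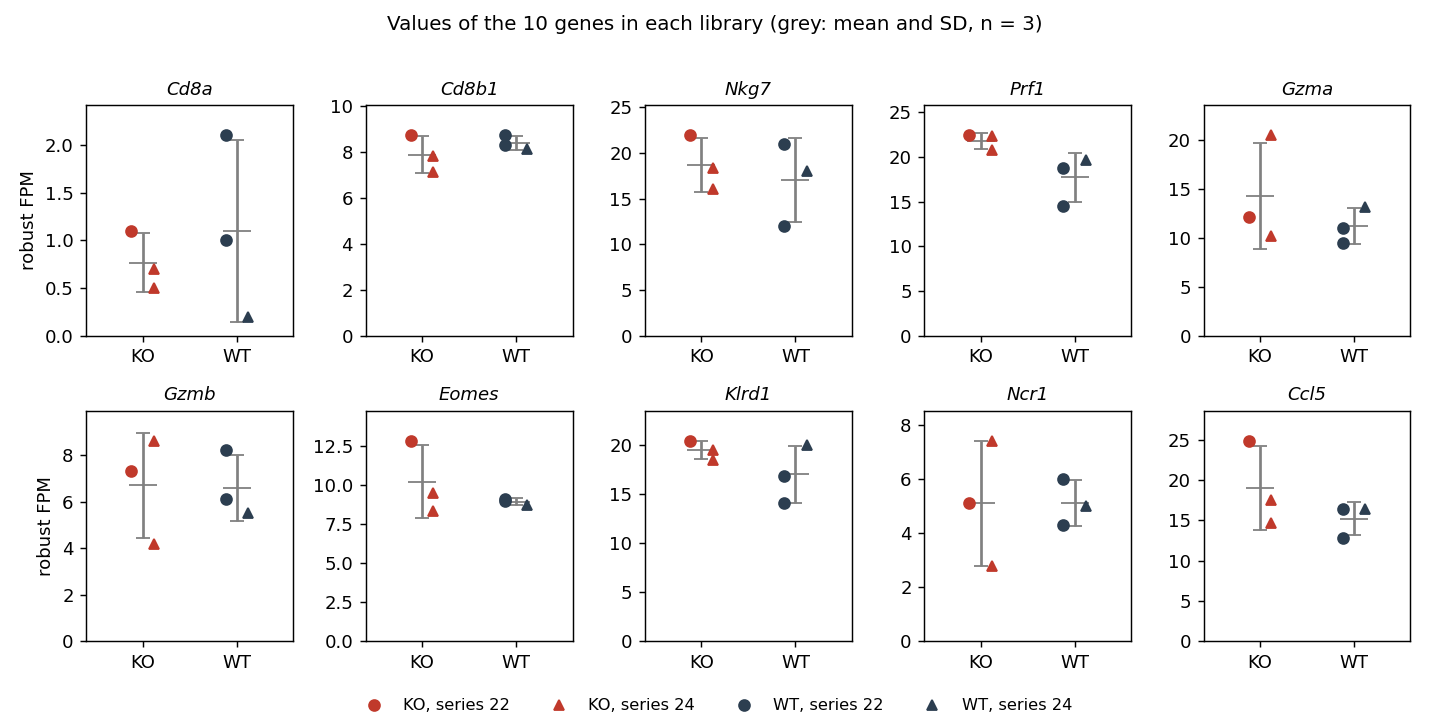
Robust FPM of the 10 genes, 1 panel per gene with its own axis from 0; points are libraries (KO left of WT, circles for series 22, triangles for series 24), and grey bars are the mean and SD of 3 libraries. Prf1 alone has all KO libraries, at 20.8 to 22.4, above all WT libraries, at 14.5 to 19.7.

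Among the granule genes, Prf1, which encodes perforin (ENSMUSG00000037202.6, chromosome 10, 61297833 to 61304680, plus strand), separated the genotypes. It measured 22.4, 22.3 and 20.8 in KO 1, KO 4 and KO 5, against 14.5, 18.8 and 19.7 in WT 1, WT 2 and WT 4. All KO values were above all WT values, which held for 1 of the 9 members and for 1.09% of all genes tested, with 2.88% free of overlap in either direction. The mean was 21.8 ± 0.896 in KO and 17.7 ± 2.78 in WT (SD, n = 3 each). The log2 change was 0.28 (SE 0.151, 95% interval -0.07 to 0.63), a 1.21-fold difference that did not pass the test (limma adjusted p = 1). It was 0.18 without WT 1, 0.13 without KO 1, 0.43 without WT 4 and 0.06 with scaling to the ERCC spike-in RNAs, a scaling that moved the median of all genes from 0.01 to -0.20.

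Gzma, the gene of granzyme A (ENSMUSG00000023132.8, chromosome 13, 113093825 to 113100981, minus strand), measured 12.2, 10.2 and 20.5 in KO 1, KO 4 and KO 5, against 9.5, 11 and 13.2 in WT 1, WT 2 and WT 4. KO 5 was high and the groups overlapped. On the log2 scale KO differed by 0.19 (SE 0.251, 95% interval -0.39 to 0.77), against -0.01 when KO 5 was left out. Gzmb, the gene of granzyme B (ENSMUSG00000015437.5, chromosome 14, 56258838 to 56262260, minus strand), measured 7.3, 4.2 and 8.6 in KO 1, KO 4 and KO 5, against 6.1, 8.2 and 5.5 in WT 1, WT 2 and WT 4. Both its lowest and its highest value were in KO libraries. Its log2 change of 0.08 (SE 0.269, 95% interval -0.54 to 0.71) became -0.13 without KO 5.

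Nkg7, which encodes a membrane protein of cytotoxic granules (ENSMUSG00000004612.9, chromosome 7, 43437073 to 43438249, plus strand), measured 21.9, 18.3 and 16 in KO 1, KO 4 and KO 5, against 12.0, 21.0 and 18.0 in WT 1, WT 2 and WT 4. WT 1 was low and the groups overlapped. The fitted log2 difference of 0.19 (SE 0.231, 95% interval -0.34 to 0.72) became -0.01 without WT 1 and -0.07 without KO 1.

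Of the NK receptor genes, Klrd1 (ENSMUSG00000030165.16, chromosome 6, 129591782 to 129598775, plus strand) measured 20.4, 18.5 and 19.5 in KO 1, KO 4 and KO 5, against 14.1, 16.8 and 20.0 in WT 1, WT 2 and WT 4. WT 4 lay among the KO values and the other WT libraries lay under them. Its log2 change of 0.16 (SE 0.153, 95% interval -0.19 to 0.52) became -0.07 without KO 1. Ncr1 (ENSMUSG00000062524.4, chromosome 7, 4337724 to 4345164, plus strand) measured 5.1, 2.8 and 7.4 in KO 1, KO 4 and KO 5, against 6.0, 4.3 and 5.0 in WT 1, WT 2 and WT 4. Its mean was 5.1 in both genotypes, with an SD of 2.3 in KO and 0.854 in WT. The log2 change of -0.05 (SE 0.334, 95% interval -0.82 to 0.72) had the widest interval of the 9 genes.

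Eomes, the gene of a T-box factor that drives cytotoxic and memory programmes (ENSMUSG00000032446.14, chromosome 9, 118478212 to 118486132, plus strand), measured 12.8, 9.5 and 8.3 in KO 1, KO 4 and KO 5, against 9.1, 9.0 and 8.7 in WT 1, WT 2 and WT 4. KO 1 was high, and the other 5 libraries lay between 8.3 and 9.5. Its log2 change of 0.25 (SE 0.158, 95% interval -0.11 to 0.62) became 0.03 without KO 1 and 0.48 without WT 4. The antisense gene Gm33460 shares 118 exon bases with Eomes, and the sources used here do not say whether counting used the strand.

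Ccl5, the gene of the chemokine RANTES (ENSMUSG00000035042.2, chromosome 11, 83525778 to 83530518, minus strand), measured 24.8, 17.5 and 14.7 in KO 1, KO 4 and KO 5, against 12.8, 16.4 and 16.4 in WT 1, WT 2 and WT 4. KO 1 was the highest library, and KO 5 lay among the WT values. The log2 change of 0.36 (SE 0.205, 95% interval -0.11 to 0.84) was the largest of the 9 genes. It was -0.03 without KO 1 and 0.76 without WT 4.

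Cd8b1 had a log2 change of -0.04 (SE 0.141, 95% interval -0.37 to 0.29), the narrowest interval of the 9. As a fold, this interval ran from 0.774 to 1.22. Cd8a was not tested with all 6 libraries under the filter. Without the filter its log2 change was 0.17 (95% interval -0.83 to 1.17, limma adjusted p = 1). It passed the filter in 3 other fits, where the change was 0.077 with ERCC scaling, 0.16 without KO 5 and -0.304 without WT 4, with intervals that all included 0. Without WT 1, the library that stood apart in receptor signal, the log2 changes were 0.23 for Ccl5, 0.22 for Eomes, 0.14 for Gzma, 0.07 for Klrd1, 0.004 for Gzmb, 0.03 for Ncr1 and -0.04 for Cd8b1, and none passed.

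**Figure D3:**
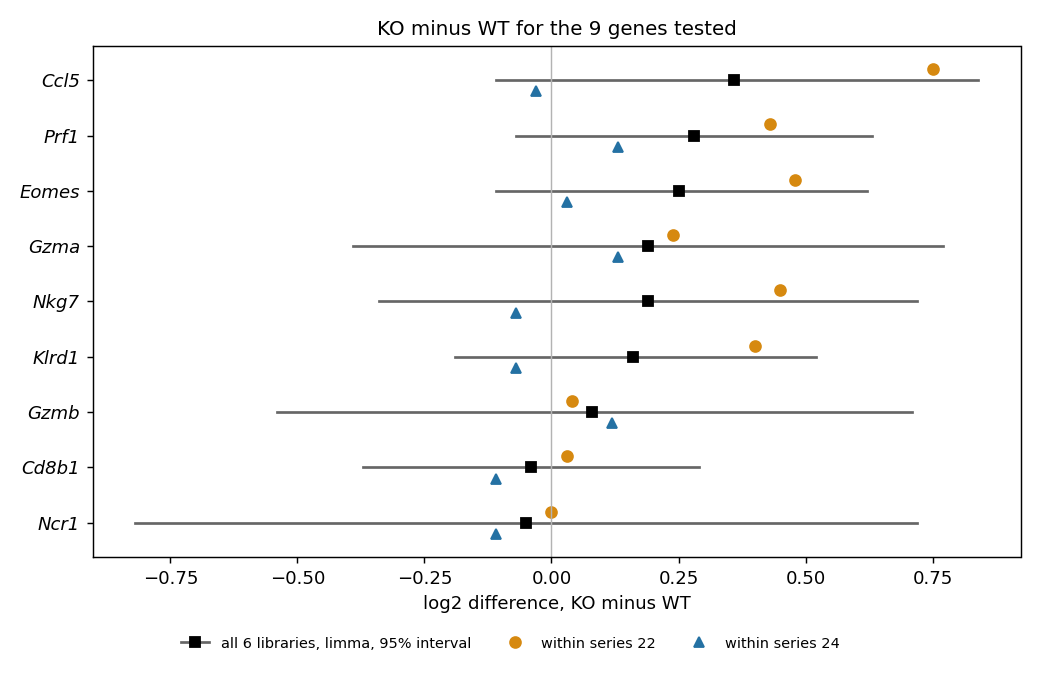
Log2 difference, KO minus WT, of the 9 genes tested, with the limma estimate from all 6 libraries and its 95% interval (black squares, grey lines), and the difference of means within series 22 (circles) and within series 24 (triangles). All 9 intervals include 0, from Ncr1 at -0.05 to Ccl5 at 0.36.

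Within each library series the genotypes were set against each other. Within series 22, where KO 1 stands against WT 1 and WT 2, the median log2 difference of the 9 genes was 0.40. Within series 24, where KO 4 and KO 5 stand against WT 4, it was -0.03. Over all genes tested the medians were 0.12 and -0.08 in these series. Ccl5 had 0.75 in series 22 and -0.03 in series 24, Nkg7 had 0.45 and -0.07, Klrd1 had 0.40 and -0.07, and Eomes had 0.48 and 0.03. Prf1 was positive in both, at 0.43 and 0.13. A positive difference in series 22 with a negative one in series 24 was seen for 5 of the 9 members and for 54.3% of all genes tested.

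The difference between the series was tested as an interaction. limma called 0 of the 9 members and 0% of the 14944 genes (adjusted p below 0.05), with 368 genes at an unadjusted p under 0.05. Ccl5 had the largest interaction, a log2 difference of 0.79 (SE 0.315, 95% interval 0.01 to 1.56) with an unadjusted p of 0.0477 and a limma adjusted p of 0.678. Klrd1 had 0.47 (95% interval -0.18 to 1.11) and Nkg7 0.52 (95% interval -0.63 to 1.67), the Nkg7 value being 0.13 without WT 1 and 0.91 without WT 2. The all-gene median of this interaction was 0.21, and 71.6% of genes were positive, against a median of 0.30 and 8 of 9 positive for the members. Klrd1 was the 1 member of 9 with KO 1 above both WT libraries of series 22 and with KO 4 and KO 5 below WT 4, an arrangement found in 31.5% of all genes tested.

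**Figure D4:**
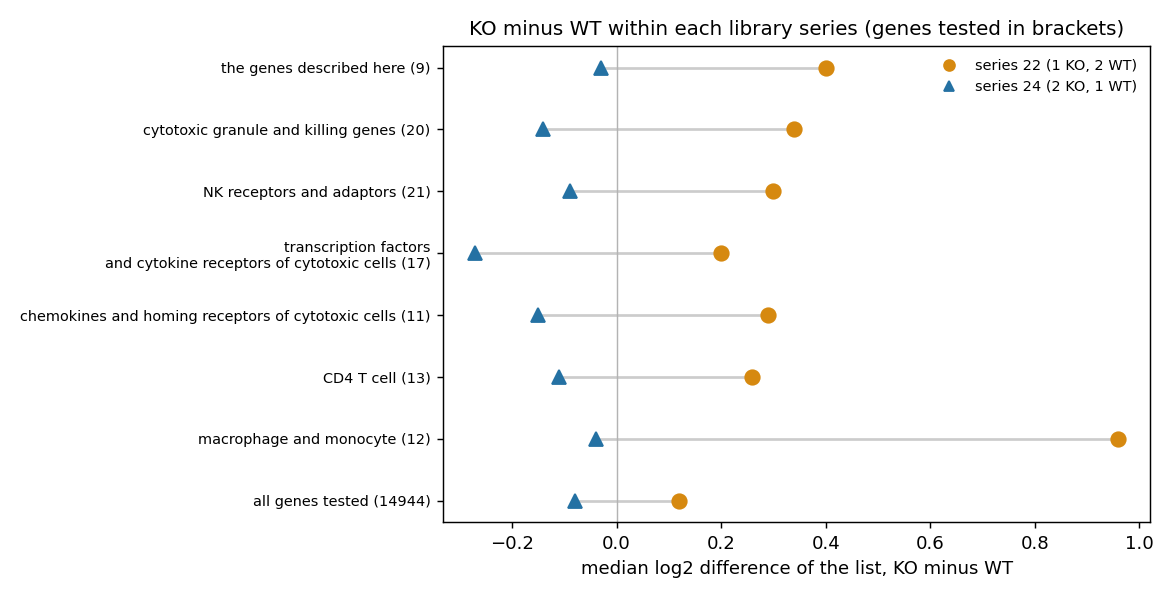
Median log2 difference, KO minus WT, of the lists shown within series 22 (circles) and series 24 (triangles), with genes tested in brackets. The 9 genes described here have 0.40 and -0.03. Among the lists shown, the macrophage and monocyte list has the widest span, 0.96 and -0.04. The B cell, dendritic cell, gamma-delta and NKT cell and neutrophil lists are not shown. The neutrophil list, with 4 genes tested, had a wider span in the opposite direction, -0.84 and 0.51.

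Set by library series instead of genotype, 0 of the 9 genes passed. limma called 0.134% of genes higher and 0.00669% lower in series 22 (adjusted p below 0.05). The log2 changes of these 9 genes, series 22 minus series 24 with genotype as a term, lay between -0.30 for Gzma and 0.30 for Gzmb. Their limma adjusted p was 0.677 to 0.962. Both ends moved with 1 library, Gzma to -0.51 without KO 4 and -0.10 without KO 5, and Gzmb to 0.10 without KO 4 and 0.51 without KO 5. Cd8b1 measured 8.7, 8.7 and 8.3 in KO 1, WT 1 and WT 2 of series 22, against 7.1, 7.8 and 8.1 in KO 4, KO 5 and WT 4 of series 24. The series did not overlap for Cd8b1, the 1 such member of 9, where 6.14% of all genes tested lay above series 24 in each library of series 22, 14.3% lay below, and 20.5% did either. Its log2 change between series was 0.14 (95% interval -0.19 to 0.47). Cd8a, not tested under the filter, measured 1.1, 2.1 and 1.0 in series 22, against 0.7, 0.5 and 0.2 in series 24. Without the filter its log2 change between series was 1.02 (95% interval 0.02 to 2.02, limma adjusted p = 0.857). Without WT 4 this change was 0.547. The part of the receptor background in it was not tested.

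The libraries ordered the members in different ways. KO 1 held the highest value of 6 of the 10 genes, KO 5 that of 3 and WT 1 that of 2, with a tie between KO 1 and WT 1 for Cd8b1. WT 1 held the lowest value of 5, KO 4 that of 3, and KO 5 and WT 4 that of 1 each. How often each library was the highest or the lowest over all genes tested was not counted. These counts are therefore not read as particular to the members. In KO 5, Gzma, Gzmb and Ncr1 were at their highest, while Eomes was at its lowest. The ratio of Gzma to Ccl5, which needs no length, was 0.492, 0.583 and 1.39 in KO 1, KO 4 and KO 5, against 0.742, 0.671 and 0.805 in WT 1, WT 2 and WT 4. The ratio of Ncr1 to Eomes was 0.398, 0.295 and 0.892 in the KO libraries, against 0.659, 0.478 and 0.575 in the WT libraries. KO 5 was the highest and KO 1 or KO 4 the lowest library for both ratios. For KO 5 this follows from the values of the genes themselves and is not a separate result.

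**Figure D5:**
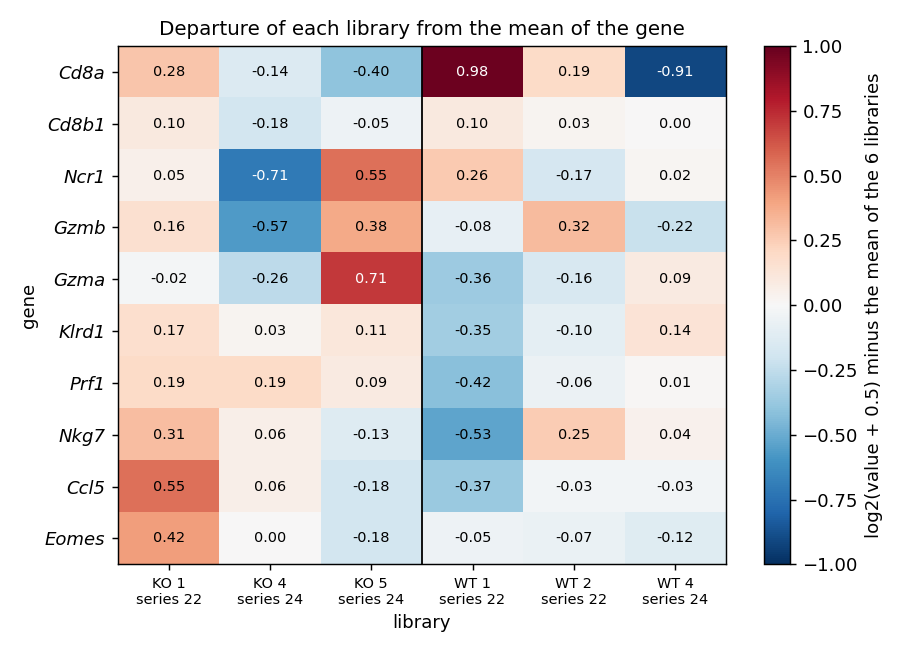
Departure of each library from the mean of the 6 libraries, on the log2(value + 0.5) scale, for the 10 genes (rows) in KO libraries left of WT libraries (columns). Ncr1, Gzmb and Gzma are high in KO 5, at 0.55, 0.38 and 0.71, where Nkg7, Ccl5 and Eomes are below their means, at -0.13, -0.18 and -0.18.

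Likeness between members was measured as the mean absolute difference of these departures over the 6 libraries, as a description. Prf1 and Klrd1 were the closest pair at 0.07, followed by Eomes and Ccl5 at 0.11 and by Nkg7 and Ccl5 at 0.13. Outside the list, the genes closest to the mean departure of the 8 tested members other than Cd8b1 were Mipep (0.035), Tgfbrap1 (0.035), Sf3b4 (0.037), Cnnm4 (0.038) and Ctsl (0.04), against a median of 0.15 over 10304 genes. The closest to the mean of Cd8a and Cd8b1 were Gm26799 (0.089), Gm36445 (0.096), Armcx4 (0.098), Utp14b (0.101) and Ddias (0.107), against a median of 0.34. This mean mostly follows Cd8a, which was under the filter and departed by 0.98 in WT 1 and -0.91 in WT 4. Cd8b1 stayed between -0.18 and 0.1, and the CD8 genes differed from each other by 0.42. The 10 genes named by likeness include no other gene of the cytotoxic lists.

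The wider cytotoxic lists likewise held no called gene. Of 20 other granule and killing genes, 0 were called higher and 0 lower in KO, 16 changes were positive, and the median was 0.08. Ctsc, whose product activates granzymes, measured 171 ± 37.8 in KO and 136 ± 43.2 in WT (SD, n = 3), with a log2 change of 0.21. Unc13d, needed for granule release, had 0.15, and Ctsw, a protease gene of cytotoxic cells, had 0.17. Ifng, the interferon gamma gene, differed more between series than between genotypes. It measured 20.4, 10.9 and 14.3 in KO 1, WT 1 and WT 2 of series 22, against 3.8, 3.5 and 5.2 in KO 4, KO 5 and WT 4 of series 24. The series did not overlap, and the log2 change of 1.76 did not pass (limma adjusted p = 0.0702).

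Of 21 NK receptors and adaptors, 0 were called in either direction, 12 changes were positive, and the median was 0.11. Klrb1c, the NK1.1 gene, measured 24.2, 15.8 and 24.2 in KO 1, KO 4 and KO 5, against 16.9, 28.8 and 24.2 in WT 1, WT 2 and WT 4. It did not separate the genotypes. Tyrobp, an adaptor gene used by NK and myeloid cells, had the largest log2 change of the list, 0.52 (SE 0.304), and measured 34.7, 37.9 and 72.8 in the KO libraries against 14.6, 23.2 and 47.7 in the WT libraries. Cd244a had a log2 change of 0.39 and Klra4 one of 0.35. Of the Ly49 receptor genes, Klra1 measured 4.0, 3.3 and 3.0 in series 22 and 1.0, 2.0 and 2.0 in series 24, while Klra8 measured 1.8, 2.2 and 0.7 in series 22 and 2.5, 4.2 and 2.7 in series 24. Klra7 measured 6.5, 4.7 and 4.8 in series 22 and 2.1, 4.6 and 3.2 in series 24. The series did not overlap for these genes, the direction was not shared, and no difference passed (limma adjusted p of 0.467 for Klra1, 0.628 for Klra8 and 0.524 for Klra7). For the Ly49 genes Klra3, Klra4 and Klra9 the series overlapped, and 20.5% of all genes tested were free of such overlap. Ly49 genes are close copies of each other, so their values are uncertain where reads could be split between them.

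Of 17 transcription factors and cytokine receptors of cytotoxic cells, 0 were called, 8 changes were positive, and the median was -0.04. Tox, a factor gene of exhausted and memory T cells, measured 37.7, 30.1 and 35.8 in KO 1, KO 4 and KO 5, against 40.2, 40.8 and 39.3 in WT 1, WT 2 and WT 4. Each KO value was below each WT value, as for 1.79% of all genes tested, and the log2 change of -0.18 did not pass (limma adjusted p = 1). Nfil3, which NK cell development requires, had a log2 change of 0.34, and Il12rb2, an interleukin 12 receptor gene, one of -0.23. Of 11 chemokines and homing receptors, 0 were called, 8 changes were positive, and the median was 0.17. Xcl1, a chemokine gene of NK and T cells, measured 15.9, 8.2 and 7.0 in the KO libraries against 9.9, 11.1 and 9.0 in the WT libraries. Cxcr3, a receptor gene of effector T cells, and Ccl3 had log2 changes of 0.27 and 0.35.

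Markers of other cells were set beside these values. The 12 macrophage and monocyte markers summed to 818.5 to 1699 in KO libraries and to 328.5 to 1176.8 in WT libraries, all 12 were highest in KO 5, and 11 of 12 were lowest in WT 1. All 12 log2 changes of this list were positive with a median of 0.44, and 0 were called. Lyz2, a lysozyme gene of myeloid cells, measured 66.5, 128.3 and 482.5 in KO 1, KO 4 and KO 5, against 19.0, 23.6 and 204.2 in WT 1, WT 2 and WT 4. KO 5 was also the highest library for Gzma, Gzmb and Ncr1. Of these genes, Gzma was lowest in WT 1, while Gzmb and Ncr1 were lowest in KO 4. WT 1 was the lowest library for 5 of the 10 cytotoxic genes and for 10 of the 13 CD4 T cell genes. The 8 neutrophil markers summed to 7.2 to 88.9 in KO libraries and to 17.6 to 55.4 in WT libraries. The 10 B cell markers summed to 326.4 to 692.4 in KO libraries and to 464.8 to 474.7 in WT libraries, most of it from Ighm. The part of these cells in the members' values was not tested.

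Markers of other cells that use some of the members' genes were also summed. The 7 gamma-delta and NKT cell markers summed to 43.9 to 60.4 in KO libraries and to 47.8 to 58.9 in WT libraries. Zbtb16, the NKT cell factor gene, averaged 8.5 ± 2.23 in KO and 9.1 ± 0.6 in WT (SD, n = 3 each), Trdc had values of 6.9 to 10.7, and Trav11 was at 0 to 0.2. The 10 markers of CD8a+ and plasmacytoid dendritic cells summed to 68.5 to 92.1 in KO libraries and to 64 to 104.3 in WT libraries, mostly from Bst2 and Ccr9, which T cells also express. Xcr1, a defining gene of CD8a+ dendritic cells, was low, at 0.1 to 0.6 in KO libraries and 0.2 to 1.6 in WT libraries. WT 1 was the highest library for 4 of the 10 markers, Xcr1 among them, and KO 5 for 4. Cd8a and the receptor background were also highest in WT 1, and the part of this background in Xcr1 was not tested. The 13 CD4 T cell genes summed to 3815.3 to 4572.6 in KO libraries and to 3536.6 to 4520.6 in WT libraries.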

How the data were processed

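Total RNA of 3 KO and 3 WT samples was column-purified, depleted of ribosomal RNA and made into TruSeq Stranded libraries, per the labels' protocols. Per the submitters' processing notes, the tools were STAR, featureCounts, DESeq2 and DESeq (roles and versions not given) and the build was GRCm38.p3. The authors deposited robust FPM rounded to 1 decimal, handled here as RPM and not as counts. Whole reads could not be recovered and depth is unknown, so no counting interval is given. Of 54624 rows, 92 were ERCC spike-ins and were left out, and 54409 genes had a symbol. Another 6 columns of values, named act where the columns used are named rest, matched no sample by name and were set aside. The test used log2(value + 0.5), on which changes of weakly expressed genes come out too small, for genes averaging 1 or more, with limma 3.58.1 in R 4.3.3 (mean-variance trend, terms for library series and genotype, two-sided, Benjamini-Hochberg over all genes). The interaction was a separate fit. The series' design text describes the replicates as biological, and p-values measure the spread between these samples. The fits were tested on simulated data. Exon lengths and coordinates are from GENCODE vM21 (GRCm38), whose gene models may differ from those of the authors. Alternatives changed the pseudocount, filter, variance model, scaling, covariates and libraries.

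The members, the gene lists and the tests were chosen with earlier results of these data known. Beside the members, Prmt5 and Cd4, up to 3 genes of smallest p per list and comparison, the first 2 markers tested of each other cell type and the 5 genes most like the members were eligible to be named. Cd3e is named by the same rule, and Trav11, Xcr1, Klrb1c, Klra3, Klra7, Klra8 and Klra9 were named after their values were seen.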

Additional observations from a re-analysis of the deposited data

How the results depend on the processing

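Over 15 alternatives the KO against WT test called 0 genes except with a replicate block, where it called 5, none of them a member. The replicate numbers 1 and 4 are shared by both genotypes, but nothing in the labels pairs them, and the same-numbered libraries deviated from their group means with correlations of -0.16 and -0.41. No member passed the test in any fit of the 3 comparisons. Of the members' KO against WT changes, 118 of 135 kept their sign. With ERCC scaling Nkg7 (-0.02), Gzma (-0.03), Gzmb (-0.12) and Klrd1 (-0.05) turned, with the replicate block Gzma (-0.01) and Gzmb (-0.06), and without the series term Gzmb (-0.01). Leaving out 1 library gave ranges of -0.12 to 0.03 for Cd8b1, -0.07 to 0.45 for Nkg7, 0.13 to 0.43 for Prf1, 0.03 to 0.48 for Eomes, -0.01 to 0.40 for Gzma, -0.13 to 0.28 for Gzmb, -0.07 to 0.40 for Klrd1, -0.31 to 0.23 for Ncr1 and -0.03 to 0.76 for Ccl5. Turned values were 0.03 (Cd8b1, without WT 4), -0.07 (Nkg7 and Klrd1, without KO 1), -0.01 (Nkg7, without WT 1; Gzma, without KO 5), -0.13 (Gzmb, without KO 5), 0.23, 0.03 and 0.004 (Ncr1, without KO 4, WT 1 and WT 4) and -0.03 (Ccl5, without KO 1). The cause was not tested.

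The series comparison called 21 genes, against 54 with a filter at a mean of 5, 0 without a mean-variance trend, 10 with ERCC scaling, 87 without the genotype term and 0 to 110 with 1 library left out (0 without KO 1 or WT 4, 67 without KO 4, 110 without WT 1 and 7 without WT 2). Leaving out 1 library gave ranges of -0.17 to 0.35 for Nkg7, -0.25 to 0.06 for Prf1, -0.51 to -0.10 for Gzma, 0.10 to 0.51 for Gzmb, 0.05 to 0.50 for Eomes, -0.37 to 0.1 for Klrd1, -0.2 to 0.34 for Ncr1 and -0.17 to 0.61 for Ccl5. Member changes turned in 8 of 126 fits, to -0.17 and -0.04 (Nkg7, without KO 1 and WT 2), 0.003 and 0.06 (Prf1, without WT 1 and WT 4), 0.1 (Klrd1, without WT 4), -0.2 and -0.01 (Ncr1, without KO 4 and WT 1) and -0.17 (Ccl5, without KO 1). The interaction called 0 genes except with ERCC scaling, where it called 8, none of them a member. It turned in 6 of 99 fits, to -0.37 (Gzma) and -0.52 (Ncr1) without KO 4, 0.52 (Gzmb, ERCC scaling), 0.39 (Gzmb, without KO 5), and 0.12 (Gzmb) and -0.11 (Ncr1) without WT 2. Its ranges with 1 library left out were 0.13 to 0.91 for Nkg7, 0.12 to 0.48 for Prf1, -0.37 to 0.6 for Gzma, -0.56 to 0.39 for Gzmb and -0.52 to 0.74 for Ncr1. It could not be fitted without KO 1 or WT 4, which leaves a series without 1 genotype. Among the members, rounding to 1 decimal limits Cd8a most, at 0.2 to 2.1, and it also limits the receptor background.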
